A study of Oryza sativa with 36 samples.

Results

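Levels of 6 defence genes were followed in flag leaves of rice across variety, day after flowering and season. The genes are PBZ1 (LOC_Os12g36880), PR10b (LOC_Os12g36850), PR1a (LOC_Os07g03710), PR1b (LOC_Os01g28450), an osmotin (LOC_Os12g38170) and the chitinase CHIT1 (LOC_Os02g39330), and they were selected by these identifiers out of 34623 genes measured. They were chosen with earlier results of these same libraries known, so their levels and differences are given as a description with no test. Leaves came from the hybrid WFYT025 and from its parents CHT025 and WFB, on day 10 and on day 1 after flowering. Each variety was sampled in a crop grown as middle rice and in one grown as early rice, called the middle and the early season here. The 12 combinations of variety, season and day hold 3 libraries each, 36 in all, and no treatment or infection is named for any of them. Nothing in the labels tells if the 3 replicates are separate plants. Each season is 1 crop, so season cannot be told apart from anything else that differed between the crops, including how their libraries were made.

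Pathogenesis-related (PR) proteins are small, stable proteins that plants make in infected tissue, and several of them attack microbial walls or membranes. Their genes answer to salicylate, jasmonate and ethylene, and many also respond to salt, wounding, ageing or developmental stage without any pathogen. PBZ1 and PR10b belong to the PR-10 family of intracellular proteins with a hydrophobic pocket, and PBZ1 was named for its induction by the rice protectant probenazole. PR1a and PR1b encode secreted PR-1 proteins and are widely used reporters of defence signalling in rice. Osmotins are thaumatin-like PR-5 proteins that permeabilise fungal membranes and were first found in salt-adapted tobacco cells. Chitinases such as CHIT1 cut chitin, a polymer of fungal walls.

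Expression is given as FPKM, a fragment number corrected for the length of the transcript and the size of the library, so levels can be set side by side between genes. How many reads stand behind a value is unknown. The FPKM of a library summed to between 532276 and 567391, and 21656 to 23811 genes were above 0. Libraries of the same group correlated at 0.990 to 0.996 over tested genes, and libraries of different groups at 0.794 to 0.976. All 5 leaf markers were abundant, from 847 FPKM of the photorespiratory gene GLO1 upward, with the rubisco activase gene RCA between 5264 and 26008 FPKM. The meristem genes OSH1 and OSH15, the root silicon transporter Lsi2 and the anther gene OsC6 stayed at or under 0.130 FPKM in all libraries, and the root gene Lsi1 ran from 4.06 to 15.1 FPKM. Storage genes of the developing grain were detected at low levels, with GluA1 between 0.460 and 111 FPKM. A bulk leaf sample cannot tell a change in the number of expressing cells from a change in RNA per cell.

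**Figure D1:**
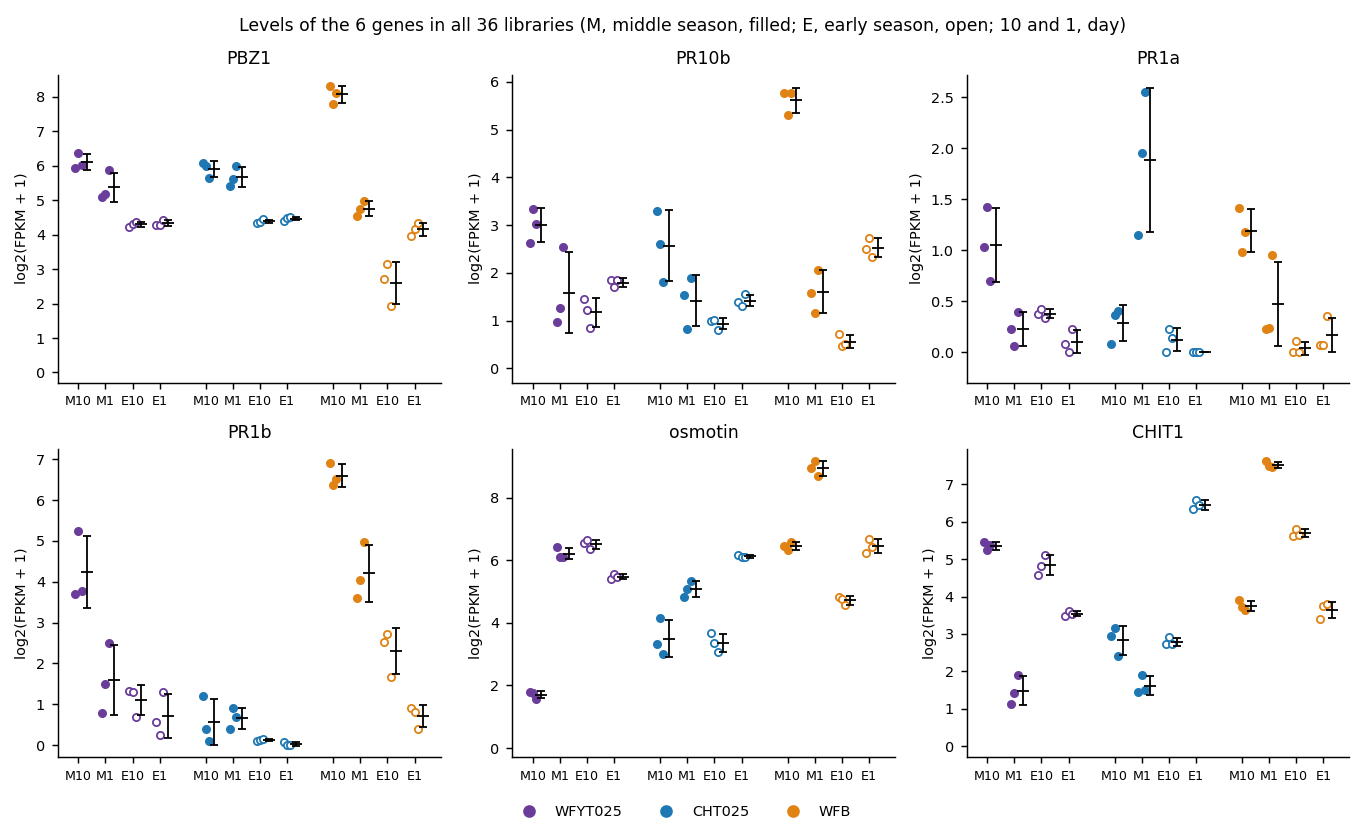
Levels of the 6 genes as log2(FPKM + 1), 1 point for each of 36 libraries, with the mean and SD of each group of 3 drawn to its right. Filled points are the middle season and open points the early season. PBZ1, PR10b and PR1b reached their highest group in WFB on day 10 of the middle season, and osmotin and CHIT1 in WFB on day 1 of that season.

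PBZ1 (LOC_Os12g36880), the PR-10 protein induced by probenazole, was more abundant at its peak than PR10b, PR1a and PR1b and was above 0 in every library. In WFB it was higher on day 10 in the middle season and lower on day 10 in the early season. WFB held 318, 223 and 274 FPKM of PBZ1 on day 10 of the middle season, against 22.5, 25.8 and 30.7 FPKM on day 1. WFB of the early season held 5.50, 7.81 and 2.81 FPKM on day 10, against 14.7, 17 and 19.4 FPKM on day 1. The libraries of day 10 and day 1 did not overlap in either season of WFB. Group means of PBZ1 were 272 ± 47.3 FPKM on day 10 and 26.3 ± 4.16 FPKM on day 1 in middle-season WFB (SD, n = 3 each), a log2 difference of 3.32 ± 0.21 (SE of the fit, on the log2(FPKM + 1) scale used for every difference below). The early-season difference in WFB was -1.58 ± 0.21.

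The 2 days lay closer together in the hybrid and in the other parent. WFYT025 had 60.5, 82.1 and 63.7 FPKM of PBZ1 on day 10 of the middle season, against 33.0, 35.3 and 57.3 FPKM on day 1. All 3 day 10 libraries of WFYT025 were above the day 1 libraries, though 1 day 1 library, at 57.3 FPKM, came close to the lowest of them, at 60.5 FPKM. CHT025 had 67.2, 62.6 and 49 FPKM on day 10 of the middle season, against 42.0, 48.4 and 63.0 FPKM on day 1, and these libraries overlapped. PBZ1 kept to a narrow range in both in the early season, and WFYT025 had 17.9, 18.8 and 19.9 FPKM on day 10, against 18.5, 18.4 and 20.5 FPKM on day 1. CHT025 had 19.4, 19.8 and 20.8 FPKM on day 10 of that season, against 20.2, 21.4 and 21.9 FPKM on day 1. Their early-season differences were -0.02 ± 0.21 in WFYT025 and -0.08 ± 0.21 in CHT025. Ordered by mean, all 6 middle-season groups of PBZ1 stood above all 6 early-season groups, from 272 down to 26.3 FPKM against 21.2 down to 5.37 FPKM. Of the 11 pairs of neighbours in that order, 7 had overlapping libraries, among them the 4 neighbouring pairs between CHT025 on day 1 and WFB on day 1 of the early season.

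PR10b (LOC_Os12g36850), a PR-10 gene whose identifier lies close to that of PBZ1, followed the same course in WFB at a lower level. WFB held 53.5, 38.4 and 53.4 FPKM of PR10b on day 10 of the middle season, against 2, 1.24 and 3.18 FPKM on day 1. In the early season WFB held 0.64, 0.38 and 0.43 FPKM on day 10, against 4.70, 5.64 and 4.07 FPKM on day 1. The groups were separate in both seasons, with log2 differences of 4.01 ± 0.32 in the middle season and -1.96 ± 0.32 in the early season. WFYT025 had 5.17, 9.15 and 7.15 FPKM of PR10b on day 10 of the middle season, against 0.96, 1.39 and 4.83 FPKM on day 1, a difference of 1.41 ± 0.32. Early-season WFYT025 went the other way, with 1.75, 1.33 and 0.79 FPKM on day 10, against 2.62, 2.24 and 2.59 FPKM on day 1. Neither pair of WFYT025 groups overlapped, but 1 library of day 1 in the middle season, at 4.83 FPKM, was close to the lowest day 10 library. CHT025 had 8.81, 5.05 and 2.51 FPKM on day 10 of the middle season, against 1.90, 0.78 and 2.73 FPKM on day 1, with overlap. Early-season CHT025 held 0.99, 1.02 and 0.74 FPKM on day 10, against 1.62, 1.49 and 1.93 FPKM on day 1, without overlap. The highest group mean of PR10b, 48.4 FPKM, was 100.2 times the lowest, 0.483 FPKM, and both belonged to WFB on day 10. Another PR-10 gene with a close identifier, LOC_Os12g36830, is a relative of both, and reads may have been divided among the 3 genes in the authors' processing, so the level of any single one is uncertain.

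PR1a (LOC_Os07g03710), a secreted PR-1 protein, was the weakest of the 6. It was listed at 0 in 7 libraries and reached 1 FPKM in 7, and such low values can reflect few reads. PR1a in middle-season CHT025 had 0.06, 0.29 and 0.32 FPKM on day 10, against 1.21, 2.87 and 4.87 FPKM on day 1, the group with the highest mean. WFB had 1.66, 0.98 and 1.26 FPKM of PR1a on day 10 of the middle season, against 0.17, 0.18 and 0.93 FPKM on day 1. WFYT025 had 1.05, 1.68 and 0.62 FPKM on day 10, against 0.17, 0.04 and 0.31 FPKM on day 1. None of these 3 pairs of groups overlapped, and PR1a was lower on day 10 in CHT025 (log2 difference -1.60 ± 0.22) and higher on day 10 in WFB (0.72 ± 0.22) and WFYT025 (0.83 ± 0.22). No early-season library exceeded 0.34 FPKM, and CHT025 was listed at 0 in all 3 libraries on day 1 of that season. All 11 pairs of neighbouring groups overlapped when ordered by mean.

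PR1b (LOC_Os01g28450), the second PR-1 gene, was ordered by variety on day 10 of the middle season, when every WFB library stood above every WFYT025 library and these above every CHT025 library, while on day 1 WFYT025 and CHT025 overlapped. WFB held 118, 81.6 and 91.1 FPKM of PR1b on day 10 of the middle season, against 11.2, 15.6 and 30.5 FPKM on day 1. In WFYT025 it stood at 11.9, 37 and 12.6 FPKM on day 10, against 0.74, 1.81 and 4.71 FPKM on day 1. The day 10 libraries were above the day 1 libraries in both varieties, by 2.38 ± 0.39 in WFB and 2.63 ± 0.39 in WFYT025. Without the WFYT025 library at 37.0 FPKM, the difference in WFYT025 was 2.13. CHT025 had 1.30, 0.32 and 0.07 FPKM of PR1b on day 10 of the middle season, against 0.31, 0.87 and 0.61 FPKM on day 1, with overlap. Early-season WFB held 4.77, 5.55 and 2.19 FPKM on day 10, against 0.88, 0.75 and 0.32 FPKM on day 1, again higher on day 10 in every library. WFYT025 of the early season had 1.52, 1.47 and 0.61 FPKM on day 10, against 0.49, 0.19 and 1.47 FPKM on day 1, and these overlapped. Early-season CHT025 stayed at or under 0.12 FPKM, with 2 libraries of day 1 listed at 0. All 6 CHT025 libraries of the middle season, the highest at 1.30 FPKM, were below every WFB library of that season, the lowest at 11.2 FPKM.

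The osmotin gene (LOC_Os12g38170) was the most abundant of the 6 at its peak and was lower on day 10 than on day 1 in 5 of the 6 pairs of groups. WFB held 87.2, 78.5 and 94.3 FPKM of osmotin on day 10 of the middle season, against 492, 569 and 412 FPKM on day 1. WFYT025 had 2.47, 2.37 and 1.99 FPKM on day 10, against 83.8, 67.2 and 68.4 FPKM on day 1. CHT025 had 9.05, 16.7 and 7.06 FPKM on day 10, against 27.1, 32.5 and 39.5 FPKM on day 1. Every day 10 library lay below every day 1 library in all 3 varieties of the middle season, with log2 differences of -2.48 ± 0.18 in WFB, -4.50 ± 0.18 in WFYT025 and -1.58 ± 0.18 in CHT025. Early-season WFB had 27.2, 26.4 and 22.6 FPKM on day 10, against 73.6, 101 and 85.5 FPKM on day 1. Early-season CHT025 had 11.7, 9.20 and 7.32 FPKM on day 10, against 71.1, 67.6 and 67.5 FPKM on day 1. The exception was early-season WFYT025, with 91.7, 98.1 and 80.2 FPKM on day 10, against 41.2, 46.6 and 43.0 FPKM on day 1. Osmotin was thus higher on day 10 in every early-season library of the hybrid, with a log2 difference of 1.02 ± 0.18, and lower in every library of both parents, with -1.73 ± 0.18 in WFB and -2.77 ± 0.18 in CHT025. The hybrid therefore held both the second highest group mean, 90.0 FPKM, and the lowest, 2.28 FPKM, and these were the 2 seasons of day 10. The second place was not distinct, since its libraries overlapped those of the next group, WFB on day 1 of the early season at 86.8 FPKM. Of the 11 pairs of neighbours in the order, 6 overlapped.

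CHIT1 (LOC_Os02g39330), annotated as a chitinase precursor, differed between the days in every variety and season, in either direction. WFB had 13.9, 12.3 and 11.5 FPKM of CHIT1 on day 10 of the middle season, against 195, 178 and 175 FPKM on day 1. WFYT025 had 43.1, 36.8 and 40.2 FPKM on day 10 of that season, against 1.19, 1.70 and 2.73 FPKM on day 1. CHT025 had 6.65, 7.95 and 4.28 FPKM on day 10, against 1.73, 2.75 and 1.85 FPKM on day 1. CHIT1 was therefore lower on day 10 in middle-season WFB (log2 difference -3.76 ± 0.16) and higher on day 10 in WFYT025 (3.87 ± 0.16) and CHT025 (1.21 ± 0.16). Early-season WFB had 48.0, 55.1 and 49.4 FPKM on day 10, against 9.56, 12.4 and 12.8 FPKM on day 1. Early-season WFYT025 had 22.8, 27.4 and 33.3 FPKM on day 10, against 10.1, 11.2 and 10.6 FPKM on day 1. Early-season CHT025 had 5.59, 6.58 and 5.70 FPKM on day 10, against 79.6, 95.5 and 85.9 FPKM on day 1. In this season the parent that was lower on day 10 was CHT025 (-3.66 ± 0.16), while WFB (2.05 ± 0.16) and WFYT025 (1.30 ± 0.16) were higher. None of the 6 pairs of CHIT1 groups overlapped. Of the 12 group means, the 3 highest were 182 FPKM in WFB on day 1 of the middle season, 87.0 FPKM in CHT025 on day 1 of the early season and 50.8 FPKM in WFB on day 10 of the early season. Only 4 of the 11 pairs of neighbours in the order overlapped, the fewest of the 6 genes.

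The highest osmotin and CHIT1 groups, both WFB on day 1 of the middle season, were also the group with the most transcripts of grain storage genes. The 4 grain markers GluA1, GluA2, Glb1 and Wx summed to 3.71 to 90.5 FPKM in WFB on day 10 and 157 to 223 FPKM on day 1 of the middle season. In the other 11 groups the sum ranged from 3.16 to 114 FPKM. The log2 differences of the 4 markers between day 10 and day 1 in middle-season WFB ran from -2.86 for GluA1 to -1.49 for Wx, and limma called 3 of them lower on day 10 (adjusted p = 0.0122 for GluA2, 0.0373 for Glb1 and 0.0167 for Wx), with GluA1 at 0.0626. The part of these grain transcripts in the WFB result was not tested across groups. Within WFB on day 10 of the early season, the library with a sum of 114 FPKM had 22.6 FPKM of osmotin and 49.4 FPKM of CHIT1, and the libraries with sums of 9.19 and 9.34 FPKM had 27.2 and 26.4 FPKM of osmotin and 48.0 and 55.1 FPKM of CHIT1. In the other WFB groups osmotin rose with the sum. On day 1 of the middle season, sums of 157, 166 and 223 FPKM stood beside 412, 492 and 569 FPKM of osmotin. CHIT1 in these libraries was 175, 195 and 178 FPKM. On day 10 of that season, sums of 3.71, 39.1 and 90.5 FPKM stood beside 78.5, 87.2 and 94.3 FPKM of osmotin. Early-season WFB on day 1 had 73.6, 85.5 and 101 FPKM of osmotin at sums of 5.64, 5.88 and 38.8 FPKM. Outside WFB, osmotin rose with the sum only in CHT025 and WFYT025 on day 1 of the early season. WFYT025 on day 1 of the middle season had 83.8, 68.4 and 67.2 FPKM of osmotin at sums of 3.16, 62.9 and 70.7 FPKM. CHT025 on that day had 39.5, 27.1 and 32.5 FPKM of osmotin at sums of 78.6, 84.0 and 114 FPKM. Its CHIT1 was 1.85, 1.73 and 2.75 FPKM in the same order.

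Across the 6 day comparisons, the count of the 6 genes with separate groups is given as a description, beside the share of all 18585 tested genes with separate groups in the same direction. In middle-season WFYT025, 5 of the 6 were higher in every library on day 10 and 1 lower, with 48.6% of tested genes higher and 17.6% lower. Middle-season CHT025 had 1 higher and 2 lower, beside 26.8% and 23.6% of tested genes. Middle-season WFB had 4 higher and 2 lower, beside 46.6% and 20.9%. PBZ1, PR10b, PR1a and PR1b were the 4 higher genes in WFB, and the same 4 with CHIT1 were the 5 higher genes in WFYT025. In the early season, WFYT025 had 3 higher and 1 lower, beside 35% and 36.5% of tested genes. Early-season CHT025 had 1 higher and 3 lower, beside 27.2% and 42.6%, and WFB had 2 higher and 3 lower, beside 25.9% and 47.1%. The higher gene in early-season CHT025 was PR1b, at 0.08 to 0.12 FPKM on day 10 against 0 to 0.06 FPKM on day 1. PR1a, among the higher genes of early-season WFYT025, also lay near 0, at or under 0.34 FPKM. The genes were chosen with these contrasts known, so nothing is read from the counts.

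Day 10 leaves differed from day 1 leaves in more than defence. The senescence regulator OsNAP was called higher on day 10 in all 6 comparisons, by 0.92 to 2.05 on the log2 scale. The chlorophyll-breakdown gene SGR was called higher in 5, all but middle-season WFB. The senescence marker PAO averaged more on day 10 in all pairs but middle-season WFYT025, with 59.3 ± 1.19 FPKM on day 10 and 59.6 ± 2.64 FPKM on day 1 (SD). In the early season the morning clock gene LHY was higher on day 10 by 2.48 in CHT025, 3.28 in WFYT025 and 3.97 in WFB, and in the middle season its differences were 0.04, -1.12 and -0.49. The clock gene PRR1 averaged less on day 10 in every variety and season. GI, another clock gene, averaged less on day 10 in every variety of the early season. In the middle season GI averaged less on day 10 in CHT025 and more in WFB and WFYT025. The part of leaf ageing and of the hour of sampling in the levels of the 6 genes was not tested.

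**Figure D2:**
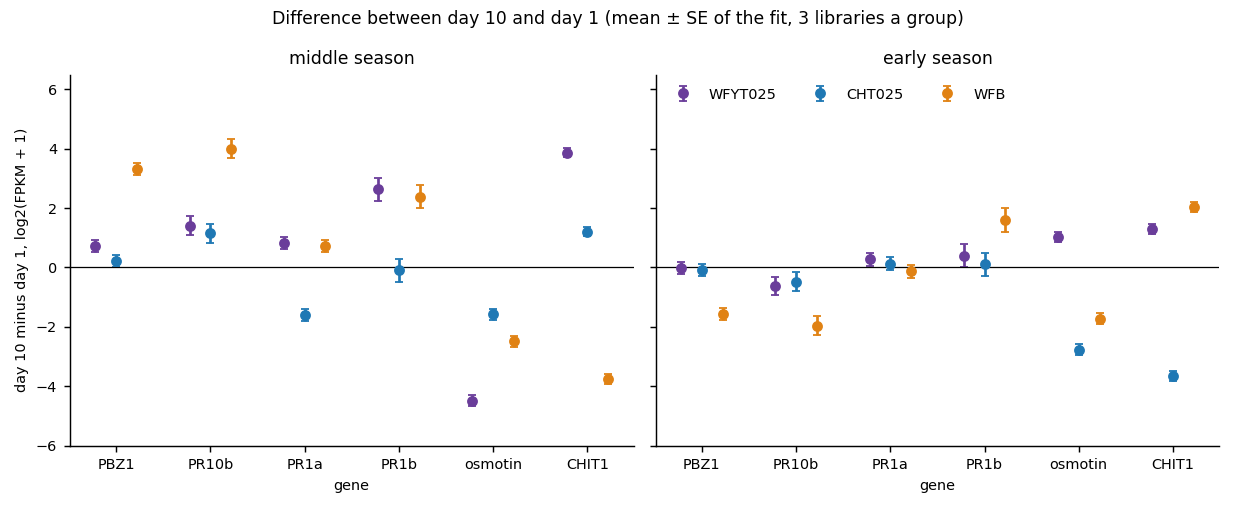
Difference between day 10 and day 1 for each gene in log2(FPKM + 1), with the SE of the fit as bars and 3 libraries in each group. In the middle season PBZ1 and PR10b were higher on day 10 in WFB by 3.32 and 4.01, and CHIT1 ran from -3.76 in WFB to 3.87 in WFYT025.

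Set by season, PBZ1 was higher in the middle than in the early season in all 6 combinations of variety and day, with no overlap of libraries. Its log2 differences between middle and early season were 5.49 ± 0.21 in WFB, 1.80 ± 0.21 in WFYT025 and 1.52 ± 0.21 in CHT025 on day 10, and 0.59 ± 0.21, 1.05 ± 0.21 and 1.21 ± 0.21 in the same order on day 1. PR10b showed the season difference on day 10, by 5.05 ± 0.32 in WFB, 1.83 ± 0.32 in WFYT025 and 1.63 ± 0.32 in CHT025. On day 1 its groups overlapped between the seasons in WFYT025 and CHT025, and in WFB it was lower in the middle season (-0.92 ± 0.32). PR1b was higher in the middle season in WFB by 4.29 ± 0.39 on day 10 and 3.51 ± 0.39 on day 1. It was also higher in every library in WFYT025 on day 10 (3.13 ± 0.39) and, near 0 FPKM, in CHT025 on day 1 (0.63 ± 0.39). The seasons overlapped for PR1b in WFYT025 on day 1 and CHT025 on day 10. PR1a, at low levels, was separate and higher in WFB (1.15 ± 0.22) and WFYT025 (0.67 ± 0.22) on day 10 and in CHT025 (1.88 ± 0.22) on day 1. Osmotin was higher in the middle season on both days in WFB, by 1.73 ± 0.18 on day 10 and 2.49 ± 0.18 on day 1. In WFYT025 osmotin was instead lower in the middle season on day 10 (-4.79 ± 0.18), and higher on day 1 (0.73 ± 0.18). In CHT025 osmotin was lower in the middle season on day 1 (-1.05 ± 0.18), and the seasons overlapped on day 10. CHIT1 on day 1 was higher in the middle season in WFB (3.87 ± 0.16) and lower in CHT025 (-4.83 ± 0.16) and WFYT025 (-2.05 ± 0.16). On day 10 CHIT1 was lower in the middle season in WFB (-1.93 ± 0.16) and higher in every library in WFYT025 (0.52 ± 0.16). The CHT025 groups of CHIT1 overlapped on day 10, at 6.29 ± 1.86 FPKM in the middle season and 5.96 ± 0.543 FPKM in the early season (SD, n = 3 each).

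The hybrid was then set against its parents, with the mean of both parents taken on the log2 scale. On day 10 of the middle season WFYT025 had less osmotin than either parent in every library, at 2.28 FPKM against 10.9 FPKM in CHT025 and 86.7 FPKM in WFB, and more CHIT1 than either, at 40.0 FPKM against 6.29 FPKM in CHT025 and 12.6 FPKM in WFB. These stood at -3.26 ± 0.16 and 2.06 ± 0.14 relative to the parental mean. In that comparison 1 of the 6 genes was higher than both parents, 1 lower and 1 between them in every library, beside 12.2%, 18.1% and 12.5% of tested genes. The WFYT025 libraries of PBZ1, PR10b and PR1a overlapped those of a parent. PR1b in WFYT025 lay between the parents in every library, at 0.65 ± 0.34 relative to their mean. On day 1 of the middle season no gene of the 6 was outside both parents in every library (6% of tested genes were higher and 23.7% lower) and osmotin alone lay between them, beside 18.1% of tested genes. CHIT1 on that day was 1.19, 1.70 and 2.73 FPKM in WFYT025, 1.73, 2.75 and 1.85 FPKM in CHT025 and 195, 178 and 175 FPKM in WFB, so the hybrid overlapped CHT025 at -3.08 ± 0.14 relative to the parental mean.

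In the early season osmotin was again outside the parents, on opposite sides on the 2 days. On day 10 osmotin in WFYT025 averaged 90.0 ± 9.06 FPKM, against 9.39 ± 2.17 FPKM in CHT025 and 25.4 ± 2.47 FPKM in WFB (SD, n = 3 each), 2.47 ± 0.16 relative to the parental mean. On day 1 it averaged 43.6 ± 2.73 FPKM in WFYT025, against 68.7 ± 2.03 FPKM in CHT025 and 86.8 ± 14.0 FPKM in WFB, -0.81 ± 0.16 relative to the parental mean. Day 10 counts were 2 genes higher (PR1a and osmotin), 0 lower and 2 between (PR1b and CHIT1), beside 9.33%, 4.85% and 19.3% of tested genes. PR1a lay near 0 here, at 0.26 to 0.34 FPKM in WFYT025 against at most 0.17 FPKM in CHT025 and 0.08 FPKM in WFB. Such low values can reflect few reads. Day 1 counts were 0 higher, 1 lower (osmotin) and 1 between (PR10b), beside 6.31%, 11% and 17.2%. PBZ1 in WFYT025 overlapped CHT025 on both days of the early season, and on day 10 both were above WFB in every library. Between the parents, all 6 genes were lower in CHT025 than in WFB in every library on day 10 of the middle season, beside 24.6% of tested genes, with differences from -0.91 ± 0.22 for PR1a to -6.03 ± 0.39 for PR1b. The other parental comparisons were mixed. CHT025 had 2 genes higher and 3 lower on day 1 of the middle season. In the early season it had 2 higher and 3 lower on day 10, and 2 higher and 4 lower on day 1. PBZ1 was among the higher genes each time. Shares of all tested genes are not given for these comparisons, and nothing is read from the counts.

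**Figure D3:**
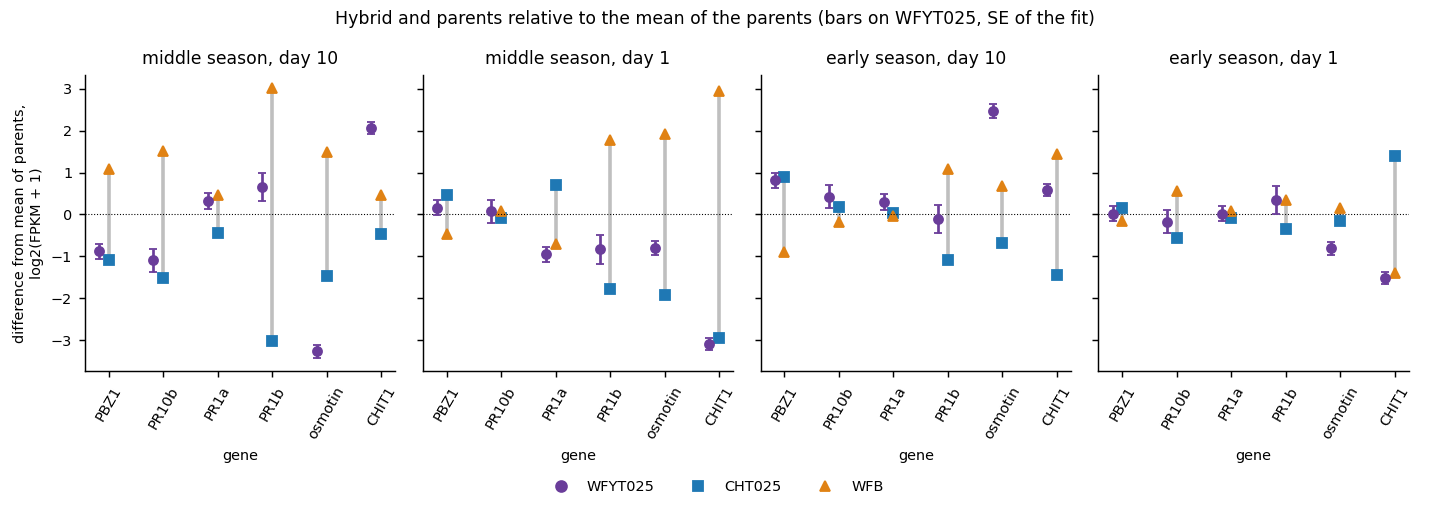
Levels of the hybrid WFYT025 and of its parents CHT025 and WFB relative to the mean of the parents, in log2(FPKM + 1), for each season and day, with the grey line joining the parents and bars for the SE of the fit. Osmotin in the hybrid lay outside the grey line in 3 of the 4 panels and CHIT1 lay above it on day 10 of the middle season. On day 1 of both seasons the CHIT1 mean lay slightly below the line, with libraries that overlapped those of the lower parent.

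The 6 genes did not form 1 pattern. Over the 12 group means, PBZ1 and PR10b had a Pearson r of 0.85, PR10b and PR1b 0.70, and PBZ1 and PR1a 0.65. Osmotin had an r between -0.12 and 0.30 with each of the other 5, and CHIT1 between -0.30 and 0.33. These are descriptions over 12 points that share varieties, seasons and days. Replicates of 1 group also differed more for these genes than for most: the residual SD of log2(FPKM + 1) was 0.216 for CHIT1 and 0.523 for PR1b, the lowest and the highest of the 6, against a median of 0.106 over tested genes. On day 1 of the middle season, replicate 3 was the highest of the 3 libraries in 13 of the 18 combinations of gene and variety, and for PBZ1, PR10b and PR1a it was the highest in all 3 varieties. On day 10 of that season replicate 1 was the highest in 10 of 18. The part of those libraries in the results was not tested beyond leaving each out in turn.

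The genes with the most similar pattern were sought among 11556 tested genes whose group means span at least 1 on the log2 scale. Osmotin was most like BBTI1 (LOC_Os01g03310), a Bowman-Birk inhibitor of trypsin, at r = 0.958 over 12 group means. BBTI1 reached 423 FPKM in its highest group, WFB on day 1 of the middle season, and 3.39 FPKM in its lowest, WFYT025 on day 10 of that season, the same 2 groups as for osmotin (means taken on the log2 scale). The next genes for osmotin were LOC_Os11g09684 at 0.870 and OsIAA2 (LOC_Os01g09450), an Aux/IAA protein, at 0.840. PR1b was most like OsWAK45 (LOC_Os04g30010), a wall-associated receptor kinase, at 0.991, then OsWAK83 (LOC_Os09g29560), annotated as a pseudogene, at 0.979 and a cytochrome P450 (LOC_Os08g39660) at 0.974. CHIT1 was most like LOC_Os07g37320, a transporter family gene, at 0.973, which reached 699 FPKM in WFB on day 1 of the middle season. After it came a nitrate-induced NOI gene (LOC_Os06g17870) at 0.957 and LOC_Os05g46340 at 0.943.

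Among the PR-10 genes, PBZ1 was most like LOC_Os03g61960, annotated with an iron-sulfur binding domain, at 0.960, followed by a kinase gene annotated as APK1A (LOC_Os03g16740) at 0.955 and a GTPase-activating protein (LOC_Os07g31720) at 0.947. PR10b was most like Os5bglu20 (LOC_Os05g30280), a beta-glucosidase homologue, at 0.969, but that gene peaked at 1.58 FPKM. A C3HC4 zinc finger gene (LOC_Os09g32730) at 0.960 and an aspartic proteinase (LOC_Os07g34850) at 0.950 followed, peaking at 3.11 and 4.53 FPKM. All 3 genes most like PR1a, LOC_Os04g36750, LOC_Os03g16030 and LOC_Os01g08860, are annotated as hsp20 small heat-shock proteins, at r of 0.928, 0.918 and 0.914. LOC_Os04g36750 and PR1a shared their highest group, CHT025 on day 1 of the middle season, at log2 means of 2.52 and 1.88. Their next highest means were 1.14 and 1.19. Ranked by Spearman rho, between 0 and 2 of the 3 genes stayed the same for each of the 6, with BBTI1 kept for osmotin, OsWAK45 for PR1b and LOC_Os07g37320 for CHIT1. For PR1a none of the hsp20 genes stayed, and LOC_Os03g49170, LOC_Os05g01300 and LOC_Os07g46280 took their place.

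**Figure D4:**
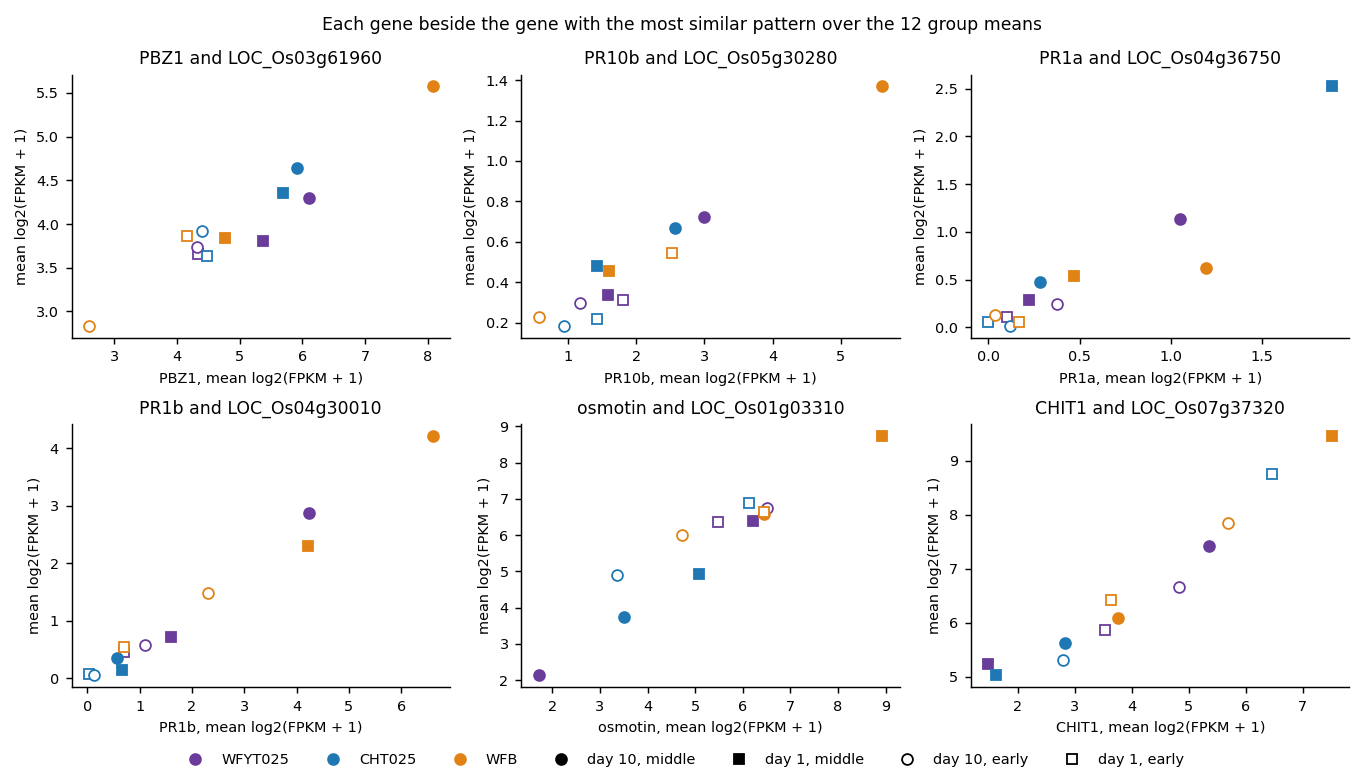
Each of the 6 genes (horizontal axis) beside the gene with the highest Pearson r (vertical axis), as means of log2(FPKM + 1) over the 3 libraries of each of 12 groups. WFB on day 10 of the middle season stands apart at the top right for PBZ1, PR10b and PR1b, and WFB on day 1 of that season for osmotin and CHIT1.

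The wider defence network was then tested over 218 listed genes, of which 108 passed the filter of 1 FPKM in at least 3 libraries, with the 6 genes left out. Calls are from limma at an adjusted p under 0.05 over all 18585 tested genes. The lists, like the 6 genes, were chosen with earlier results of these data known. Single genes named from them were picked for large day differences among called genes, so their p-values are those of selected genes and not independent tests. On day 10 of the middle season, 42 of the 108 were called higher and 29 lower than on day 1 in WFYT025, beside 47.7% and 16.6% of all tested genes; with quantile normalization the split was 34 higher and 38 lower. CHT025 had 40 higher and 34 lower in that season, beside 23.1% and 20.5%. WFB had 43 higher and 39 lower, beside 46% and 20.6%. Early-season WFYT025 had 53 higher and 15 lower, beside 33% and 35%. CHT025 of the early season had 21 higher and 35 lower, beside 25.1% and 39.9%, and WFB had 35 higher and 32 lower, beside 25% and 46.1%. The median log2 difference of the 108 genes was 0.31 in early-season WFYT025, where that of all tested genes was -0.0038, and it was between -0.03 and 0.09 in the other 5 comparisons. Quantile normalization moved the median of all tested genes most in middle-season WFYT025, to -0.07 from 0.18, and in 4 of the 6 day comparisons it turned the sign of the median of the 108 genes.

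The 18 regulators of salicylate and chitin signalling, among them NPR1, EDS1, PAD4, the chitin receptors CERK1 and CEBiP and 8 WRKY factors, were mostly higher on day 10 in the 4 comparisons in which CHIT1 was higher and mostly lower in the 2 in which CHIT1 was lower. Day 10 against day 1 gave 12 higher and 5 lower in WFYT025, 12 higher and 5 lower in CHT025 and 4 higher and 13 lower in WFB in the middle season. The early season gave 14 higher and 3 lower in WFYT025, 1 higher and 12 lower in CHT025 and 13 higher and 3 lower in WFB. Their median log2 difference was 1.25, 0.27 and -1.04 in middle-season WFYT025, CHT025 and WFB, where all tested genes had 0.18, 0.01 and 0.16. In the early season it was 0.69, -0.67 and 0.64, where all tested genes had -0.0038, -0.09 and -0.15. Whether the list and CHIT1 are linked was not tested. WRKY71 (LOC_Os02g08440), a chitin-responsive WRKY factor, averaged 18.9 ± 2.51 FPKM on day 10 and 239 ± 27.0 FPKM on day 1 in middle-season WFB (SD, n = 3 each; log2 difference -3.60 ± 0.11, adjusted p = 4.91e-22). In middle-season WFYT025 it averaged 107 ± 4.06 FPKM on day 10 and 9.97 ± 0.0551 FPKM on day 1 (3.29 ± 0.11, adjusted p = 2.09e-21). In early-season CHT025 it averaged 4.91 ± 0.571 FPKM on day 10 and 112 ± 8.27 FPKM on day 1 (-4.26 ± 0.11, adjusted p = 5.23e-24). WRKY71 was also called higher on day 10 in early-season WFYT025 (2.04 ± 0.11) and WFB (2.04 ± 0.11), and middle-season CHT025 had 0.15 ± 0.11, adjusted p = 0.269. WRKY76 (LOC_Os09g25060), known as a repressor of blast resistance, averaged 37.9 ± 5.92 FPKM on day 10 and 214 ± 18.4 FPKM on day 1 in middle-season WFB (-2.47 ± 0.15, adjusted p = 1.16e-14) and was called lower on day 10 in all 3 varieties of that season. Its early-season differences were 4.86 ± 0.15, adjusted p = 2.22e-22 in WFB, 3.02 ± 0.15, adjusted p = 6.28e-17 in WFYT025 and -0.12 ± 0.15, adjusted p = 0.504 in CHT025.

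Phenylalanine ammonia-lyases (PAL), which open the phenylpropanoid pathway to lignin and salicylate, were higher on day 10 of the middle season for 5 of 7 genes in each variety. Higher and lower PAL genes numbered 5 and 2 in WFYT025, 5 and 2 in CHT025 and 5 and 1 in WFB in the middle season, and 3 and 0 in WFYT025, 2 and 0 in CHT025 and 4 and 1 in WFB in the early season; quantile normalization gave 5 and 2 in middle-season WFB and 5 and 0 in early-season WFB. PAL1 (LOC_Os02g41630) averaged 188 ± 32.2 FPKM on day 10 and 1.35 ± 0.508 FPKM on day 1 in middle-season WFB (6.34 ± 0.24, adjusted p = 1.48e-19). It averaged 76.0 ± 7.55 FPKM on day 10 and 7.51 ± 4.02 FPKM on day 1 in WFYT025 and 69.6 ± 14.7 FPKM on day 10 and 13.3 ± 3.28 FPKM on day 1 in CHT025. The PAL gene LOC_Os04g43800 moved the other way, with log2 differences of -1.48 ± 0.08 in WFB, -1.53 ± 0.08 in WFYT025 and -2.43 ± 0.08 in CHT025 in the middle season, and was called higher on day 10 in all 3 varieties of the early season. All 6 tested genes of diterpenoid phytoalexin synthesis, the antifungal compounds of rice, were higher on day 10 in middle-season WFB, beside 46% of all tested genes, and 3 were lower and none higher in early-season WFB, beside 46.1% lower of all tested genes. Higher and lower genes of the 6 numbered 2 and 2 in WFYT025, 3 and 0 in CHT025 and 6 and 0 in WFB in the middle season, and 3 and 1 in WFYT025, 2 and 1 in CHT025 and 0 and 3 in WFB in the early season. CPS2 (LOC_Os02g36210), which makes the phytocassane precursor, averaged 11.5 ± 2.25 FPKM on day 10 and 2.98 ± 0.236 FPKM on day 1 in middle-season WFB (1.64 ± 0.09, adjusted p = 2.55e-16) and 3.27 ± 0.144 FPKM on day 10 and 14.7 ± 0.486 FPKM on day 1 in early-season WFB (-1.88 ± 0.09, adjusted p = 3.05e-18). In WFYT025 its signs were the reverse of those in WFB, with -1.65 ± 0.09, adjusted p = 1.49e-16 in the middle season and 0.49 ± 0.09, adjusted p = 1.01e-05 in the early season, and early-season CHT025 had 0.61 ± 0.09, adjusted p = 3.69e-07. KSL7 (LOC_Os02g36140), a diterpene synthase, differed by 0.84 ± 0.04, adjusted p = 2.6e-17 in middle-season WFB and by -1.54 ± 0.04, adjusted p = 1.99e-24 in early-season WFB, and had the same signs in WFYT025, with 0.81 ± 0.04, adjusted p = 4.47e-17 in the middle season and -0.89 ± 0.04, adjusted p = 4.29e-18 in the early season.

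Of 8 jasmonate genes, the numbers higher and lower on day 10 were 2 and 3 in WFYT025, 4 and 3 in CHT025 and 2 and 5 in WFB in the middle season, and 7 and 1 in WFYT025, 3 and 4 in CHT025 and 4 and 3 in WFB in the early season; quantile normalization gave 1 and 6 in middle-season WFYT025. All tested genes gave 33% higher and 35% lower in early-season WFYT025, and 46% higher and 20.6% lower in middle-season WFB. MYC2 (LOC_Os10g42430), the main jasmonate-response activator, averaged 17.7 ± 1.15 FPKM on day 10 and 93.9 ± 12.9 FPKM on day 1 in middle-season WFB (-2.33 ± 0.08, adjusted p = 1.98e-20), the group pair in which osmotin and CHIT1 were also lower on day 10. MYC2 was called higher on day 10 in early-season WFYT025, early-season WFB and middle-season CHT025, with 0.88 ± 0.08, 0.27 ± 0.08 and 0.71 ± 0.08, and lower in middle-season WFYT025 and early-season CHT025, with -0.48 ± 0.08 and -1.23 ± 0.08. JAZ8 (LOC_Os09g26780), a repressor induced by jasmonate, averaged 2.59 ± 0.602 FPKM on day 10 and 15.7 ± 3.83 FPKM on day 1 in middle-season WFB (-2.21 ± 0.18, adjusted p = 6.3e-12), was called lower on day 10 in all 3 varieties of that season, and in the early season was called higher in WFYT025 and WFB and lower in CHT025.

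**Figure D5:**
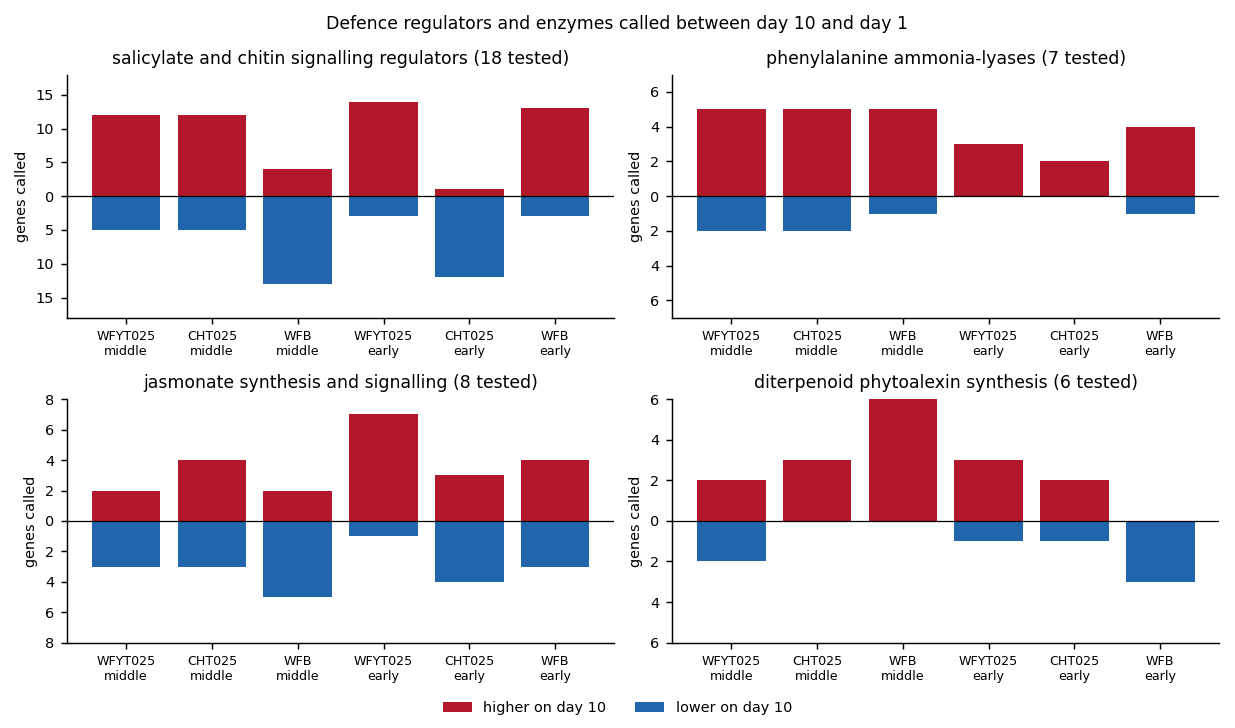
Numbers of genes called by limma between day 10 and day 1 in 4 lists, bars up for higher and bars down for lower on day 10, for each variety and season. Salicylate and chitin regulators were mostly lower on day 10 in middle-season WFB (13 of 18) and early-season CHT025 (12 of 18) and mostly higher in the other 4 comparisons.

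Relatives of the 6 genes were taken family by family. The shares of all tested genes given for each day comparison above are the background for each family. Of 6 other PR-10 genes, the numbers higher and lower on day 10 were 3 and 1 in WFYT025, 3 and 2 in CHT025 and 5 and 1 in WFB in the middle season, and 3 and 0 in WFYT025, 2 and 0 in CHT025 and 1 and 1 in WFB in the early season; quantile normalization gave 3 and 2 in middle-season WFYT025. LOC_Os12g36830, close in identifier to PBZ1 and PR10b, averaged 82.0 ± 17.1 FPKM on day 10 and 9.65 ± 0.437 FPKM on day 1 in middle-season WFB (2.94 ± 0.21, adjusted p = 3.9e-13), and in early-season WFB it was lower on day 10 (-1.06 ± 0.21, adjusted p = 5.74e-05), as both were. LOC_Os04g50700, another PR-10 gene, had the opposite signs in WFB, with -1.02 ± 0.16, adjusted p = 2.42e-06 in the middle season and 2.05 ± 0.16, adjusted p = 1.74e-12 in the early season. Of 32 other genes annotated to the PR-1 family, 4 passed the filter, and of these the numbers higher and lower were 1 and 1 in WFYT025, 0 and 3 in CHT025 and 1 and 1 in WFB in the middle season, and 2 and 1 in WFYT025, 1 and 1 in CHT025 and 1 and 0 in WFB in the early season; quantile normalization gave 1 and 2 in middle-season WFYT025. LOC_Os07g03730 was higher on day 10 in middle-season WFYT025 (2.35 ± 0.31, adjusted p = 1.44e-07) and lower in middle-season CHT025 (-1.27 ± 0.31, adjusted p = 0.00136), as PR1a was, and LOC_Os02g54560 was lower in middle-season WFYT025 (-0.57 ± 0.10, adjusted p = 1.34e-05) and higher in early-season WFB (1.07 ± 0.10, adjusted p = 7.28e-11). PR-1 genes can be near-identical copies, so reads may have been divided among them.

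Of 8 other chitinases, the numbers higher and lower on day 10 were 6 and 1 in WFYT025, 1 and 4 in CHT025 and 4 and 2 in WFB in the middle season, and 5 and 2 in WFYT025, 2 and 4 in CHT025 and 3 and 2 in WFB in the early season. CHIT14 (LOC_Os10g39680) was called in the direction that CHIT1 showed in 5 of the 6 day comparisons, with middle-season CHT025 as the exception (-0.15 ± 0.24, adjusted p = 0.666). It averaged 94.7 ± 3.73 FPKM on day 10 and 9.19 ± 6.60 FPKM on day 1 in middle-season WFYT025 (3.41 ± 0.24, adjusted p = 2.41e-13) and 24.8 ± 2.43 FPKM on day 10 and 84.8 ± 6.16 FPKM on day 1 in middle-season WFB (-1.73 ± 0.24, adjusted p = 2.91e-07). CHIT12 (LOC_Os08g41100) had the opposite signs to CHIT1 in WFB, with 1.16 ± 0.10, adjusted p = 1.93e-11 in the middle season and -2.21 ± 0.10, adjusted p = 2.14e-18 in the early season. The beta-1,3-glucanases of PR-2, which cut another fungal wall polymer, had 27 tested genes. Higher and lower numbers were 8 and 6 in WFYT025, 10 and 8 in CHT025 and 11 and 10 in WFB in the middle season. They were 10 and 4 in WFYT025, 5 and 7 in CHT025 and 6 and 12 in WFB in the early season. Quantile normalization gave 4 and 9 of these genes in middle-season WFYT025 and 8 and 10 in early-season WFB. Among them LOC_Os05g41610 was lower on day 10 in middle-season WFB (-2.24 ± 0.07, adjusted p = 1.89e-21), higher in middle-season WFYT025 (1.52 ± 0.07, adjusted p = 1.31e-17) and lower in early-season CHT025 (-1.85 ± 0.07, adjusted p = 1.29e-19), the signs CHIT1 showed, but lower in early-season WFYT025 (-0.52 ± 0.07, adjusted p = 2.42e-07), where CHIT1 was higher. In middle-season WFB LOC_Os05g31140 was higher (1.71 ± 0.11, adjusted p = 3.82e-14). Of 13 other thaumatin-like genes, the numbers higher and lower on day 10 were 3 and 3 in WFYT025, 2 and 3 in CHT025 and 3 and 2 in WFB in the middle season, and 3 and 1 in WFYT025, 0 and 2 in CHT025 and 2 and 4 in WFB in the early season; quantile normalization gave 2 and 3 in middle-season WFB, 1 and 1 in early-season CHT025 and 4 and 4 in early-season WFB. LOC_Os09g32280 was lower on day 10 in early-season WFB (-2.10 ± 0.12, adjusted p = 5.64e-16) and LOC_Os12g43440 higher in middle-season WFB (0.89 ± 0.25, adjusted p = 0.00246).

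Of the 8 Bowman-Birk inhibitors of PR-6, the numbers higher and lower on day 10 were 0 and 5 in WFYT025, 0 and 2 in CHT025 and 1 and 4 in WFB in the middle season, and 1 and 2 in WFYT025, 1 and 4 in CHT025 and 1 and 3 in WFB in the early season; quantile normalization gave 2 and 2 in early-season WFYT025. BBTI1 (LOC_Os01g03310), the gene most like osmotin, averaged 3.40 ± 0.417 FPKM on day 10 and 85.2 ± 22.7 FPKM on day 1 in middle-season WFYT025 (-4.26 ± 0.18, adjusted p = 1.65e-18), and its early-season difference in WFYT025 was 0.38 ± 0.18, adjusted p = 0.0727. BBTI2 (LOC_Os01g03320) was lower on day 10 in middle-season WFYT025 (-5.73 ± 0.22, adjusted p = 1.06e-19) and was higher on day 10 in early-season WFYT025 (0.69 ± 0.22, adjusted p = 0.00721), the signs osmotin showed. The wound-induced PR-4 proteins WIP3 (LOC_Os11g37950) and WIP4 (LOC_Os11g37960) stayed under 4 FPKM on average, and WIP3 was lower on day 10 in middle-season CHT025 (-1.76 ± 0.34, adjusted p = 7.35e-05) and higher in early-season CHT025 (0.95 ± 0.34, adjusted p = 0.0143). Of 3 PR-4 genes tested, the numbers higher and lower were 0 and 0 in WFYT025, 0 and 2 in CHT025 and 1 and 0 in WFB in the middle season, and 2 and 0 in WFYT025, 2 and 0 in CHT025 and 0 and 0 in WFB in the early season; quantile normalization gave 0 and 0 in early-season WFYT025.

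Between the seasons, the counts of the defence network were set side by side, and differences between varieties were not tested. On day 10, limma called 73 of the 108 genes higher and 12 lower in the middle than in the early season in WFB, beside 47.7% and 20.2% of all tested genes. The day 10 counts were 46 higher and 32 lower in WFYT025, beside 38.6% and 25.2%, and 56 higher and 18 lower in CHT025, beside 48.3% and 15.9%; quantile normalization gave 40 and 27 in CHT025. On day 1 the counts were 64 higher and 25 lower in WFB, beside 33.2% and 45.2%, 42 and 28 in WFYT025, beside 30.1% and 44.1%, and 49 and 34 in CHT025, beside 40.5% and 31.5%. Among the 18 regulators on day 1, 17 were higher and 1 lower in WFB and 6 were higher and 12 lower in CHT025, and CHIT1 was likewise higher in WFB and lower in CHT025. In WFYT025 on day 1 CHIT1 was lower in the middle season (-2.05 ± 0.16). WRKY71 and WRKY76 instead averaged more there, at 9.97 and 52.6 FPKM against 2.41 and 0.0833 FPKM in the early season. Seasonal counts of the regulators in WFYT025 and on day 10 are not given here, and a link to CHIT1 was not tested. The seasonal median of the 108 genes was 0.61 in WFB on day 10, where all tested genes had 0.18.

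Against the mean of its parents, WFYT025 had 26 of the 108 genes higher and 50 lower on day 10 of the middle season, beside 20.7% and 34% of all tested genes. On day 1 of that season 18 were higher and 61 lower, beside 14.6% and 49.9%, and quantile normalization gave 28 and 49. In the early season 41 were higher and 12 lower on day 10, beside 26.6% and 14.8%, with 35 and 19 under quantile normalization. On day 1 of the early season 4 were higher and 44 lower, beside 16.5% and 23.3%, with 7 and 38 under quantile normalization. The 18 regulators had 15 lower in WFYT025 on day 1 of both seasons, with 2 higher in the middle season and 1 in the early season, and CHIT1 was -3.08 ± 0.14 and -1.51 ± 0.14 relative to the parental mean on those days. On day 10 of the middle season 11 of the regulators were higher and 5 lower, and CHIT1 stood at 2.06 ± 0.14. On day 10 of the early season CHIT1 stood at 0.59 ± 0.14, and the count of the regulators is not given here. Whether the regulators and CHIT1 are linked was not tested.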

How the data were processed

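RNA-seq of rice flag leaf was deposited by the authors as FPKM, per the file headers, in 6 tables, 1 for each variety and season. The submitters' processing notes list HISAT, StringTie and edgeR, with no versions or order, and the genome build and annotation release were not found in the labels or headers. The deposited FPKM carry no read counts, so depth per library is unknown and no counting interval can be formed. In 1 table, 1 broken line and 7534 recurring lines were dropped, and 7381 further genes, all at 0, were left out, which left 34623 genes common to all tables. The tables may have been scaled separately, so levels set across them (between seasons and varieties) rest on the authors' scaling.

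Libraries were grouped by their labels into 12 groups of 3. FPKM were analysed as log2(FPKM + 1), where the added 1 FPKM understates the change of low genes, and a gene entered the test if 3 or more libraries reached 1 FPKM. One limma model (limma 3.58.1, R 4.3.3) with 12 group means and an intensity trend was fitted to all 36 libraries. Its two-sided p-values were adjusted over all 18585 tested genes by Benjamini and Hochberg, and calls were made below an adjusted p of 0.05. The fit was also run on simulated data with independent normal errors of the fitted spread. That run cannot speak to technical replicates, to 1 crop per season or to tables scaled separately. The p-values reflect only how far these libraries differ within a group, and that spread may be technical. Tables and plots were made with Python 3.11.15, pandas 2.3.3 and matplotlib 3.10.9.

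The 6 genes and the defence lists were chosen with earlier results of these data known, so the 6 genes have no test. The p-values of list genes are those of a selected set. Named in the text are the 6 genes, for each the 3 genes with the highest Pearson r over the 12 group means among genes spanning at least 1 on the log2 scale, the marker genes, and from each family or list the 2 genes with the largest median absolute day difference among those called in at least 3 of the 6 day comparisons. A root marker whose row is annotated as another gene was left out. Alternatives were another pseudocount, no filter, quantile normalization, fits of the compared groups alone, no intensity trend, the replicate number as a block, each library left out in turn, and Spearman rho for likeness.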

Additional observations from a re-analysis of the deposited data

Results flagged for a closer look

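The day effect (day 10 minus day 1, log2) of several genes ran in opposite directions in 2 groups, with every library of day 10 above every library of day 1 in one and below in the other. None of the differences in this paragraph and the next was tested, and the cause of none was tested. Between the middle and the early season, the day effect of PBZ1 in WFB differed by 4.89 (3.32 in the middle season and -1.58 in the early season). That of PR10b differed by 5.97 in WFB (4.01 and -1.96) and by 2.03 in WFYT025 (1.41 and -0.63). The day effect of osmotin in WFYT025 differed by -5.52 (-4.50 in the middle season and 1.02 in the early season). That of CHIT1 differed by 4.87 in CHT025 (1.21 and -3.66) and by -5.80 in WFB (-3.76 and 2.05).

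Between varieties of 1 season, the day effect of PR1a in the middle season differed by 2.43 between WFYT025 and CHT025 (0.83 and -1.60) and by -2.32 between CHT025 and WFB (-1.60 and 0.72). The day effect of osmotin in the early season differed by 3.79 between WFYT025 and CHT025 (1.02 and -2.77) and by 2.75 between WFYT025 and WFB (1.02 and -1.73). For CHIT1 in the early season it differed by 4.96 between WFYT025 and CHT025 (1.30 and -3.66) and by -5.71 between CHT025 and WFB (-3.66 and 2.05). In the middle season it differed by 7.63 between WFYT025 and WFB (3.87 and -3.76) and by 4.97 between CHT025 and WFB (1.21 and -3.76).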

How the results depend on the processing

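Of 32 counts of defence genes called higher or lower, every one kept within 1.5 times its value with a pseudocount of 0.1 FPKM, with no filter on low values, with no intensity trend, with only the compared groups in the fit, and when each library of the groups compared was left out in turn, which gave 216 recomputed counts. Quantile normalization moved 3 counts of WFYT025 against the parental mean past that: 7 higher in place of 4 on day 1 of the early season, 19 lower in place of 12 on day 10 of the early season, and 28 higher in place of 18 on day 1 of the middle season. With the replicate number as a block, all 32 counts also kept within 1.5 times, for example 52 higher in place of 53 for day 10 against day 1 in early-season WFYT025. Samples with the same number did not deviate together: in 0 of 20 pairs of groups did all same-numbered libraries correlate above 0.1, and a library correlated best with its own number in 20 of 60 cases.

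Of 120 log2 differences of the 6 genes, the pseudocount of 0.1 FPKM moved 55 by more than the spread between replicates, the largest being PR1a in CHT025 on day 1 between the seasons, 4.75 in place of 1.88, and quantile normalization moved 11, at most by 0.33. Signs turned only for small differences: 2 with the other pseudocount (at most 0.11), 5 with quantile normalization (at most 0.14) and 12 when 1 library was left out (at most 0.21). Unknown depth limits most what can be said of PR1a and of PR1b in CHT025, which lie near 0.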
